A study of Homo sapiens with 4 samples.

Results

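GATA2, TAL1, LMO2, LYL1, HHEX, MECOM, HLF and LDB1 are regulators of blood stem and progenitor cells. These 8 genes were chosen by name, out of the 20033 that code for protein in the RefSeq annotation of GRCh38.p14, to ask which of them lie in acetylated chromatin in MOLM13 cells and how much of that acetylation is still called after a Menin inhibitor. In control cells, H3K27Ac peaks lay over or within 5 kb of 5 of the 8 genes: GATA2, LMO2, LYL1, HHEX and LDB1. Among all protein-coding genes, 78% had a control peak there, so the count does not set the 8 genes apart. TAL1, MECOM and HLF had none there. After treatment with SNDX-50469, part of the acetylated length was still called at each of those 5 genes, from 15.3% at LMO2 to 49.8% at LYL1.

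MOLM13 is a human acute myeloid leukemia (AML) cell line with monocytic features, here the one line used, with a rearranged MLL1 gene (MLL1-r). SNDX-50469 blocks the binding of Menin to MLL1 and to MLL1 fusion proteins. H3K27Ac, the acetylation of lysine 27 of histone H3 that marks active promoters and enhancers, was profiled by ChIPmentation, in which the Tn5 transposase tags chromatin held by the antibody, in 1 control library and in 1 library made after 16 h in 500 nM SNDX-50469. The sample labels give no treatment for the control cells, while the treatment description names a DMSO arm; 2 input libraries were not analysed here.

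Each library is represented by a list of broad peaks on hg38. A gene's covered length is the length of its window, the gene body with 5 kb or with 100 kb on both sides, that lies under peaks. Its kept share says how much of the control covered length, in percent, also lies under peaks of the treated cells. There were 245875 control peaks (median width 340 bp) over 224.2 Mb and 54061 SNDX-50469 peaks (median width 295 bp) over 29.4 Mb. The smallest −log10 p was 2.68 in control and 3.93 after SNDX-50469, and the background level was 0.877 and 0.735 fragments, so that the lists also differ in how weak a peak they reach. With both lists held to a −log10 p of at least 3.93, control peaks covered 129.2 Mb, and 5 of the 8 genes were lower within 5 kb. The summed kept share of the 8 genes was then 37.2% within 5 kb, against 26.9% with all peaks. Within 100 kb it was 19.9%, against 13.8%. The part of the background level in any change of covered length was not tested. Over all positions covered by the full control list, 9.71% were kept. Of its peaks, 20257, or 8.24%, touched a SNDX-50469 peak by 1 bp or more. With 1 library per condition there is no replicate check, no test between the conditions and no p-value, and the intervals given here (Wilson, 95%) cover counting error only.

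LMO2 is a LIM-domain protein that binds no DNA itself and bridges other factors. TAL1 and LYL1 are closely related basic helix-loop-helix proteins that pair with E proteins and bind E-box motifs. GATA2 is a zinc finger factor that binds GATA motifs and is needed for stem and progenitor cells. LDB1 binds LMO2, forms dimers and can bring a distant enhancer to a promoter. These proteins meet in one DNA-bound complex, which in stem cells often sits with RUNX1, ERG and FLI1. HHEX is a homeobox factor of early blood progenitors that often acts as a repressor. MECOM encodes the zinc finger factor EVI1, and HLF is a PAR bZIP factor; both are known for stem cell self-renewal and for translocations in leukemia.

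Promoters of 5 of the genes are shown because they cover the pattern of acetylation found here, with LYL1 and the inner start of GATA2 under peaks in both lists, HHEX under a control peak only, and TAL1 and MECOM under none. Each is the 250 bases before a RefSeq start (GRCh38.p14), 5′ to 3′ on the strand of the gene, with GATAA on either strand (read as GATAA or TTATC) and the E-box CANNTG in capitals. No capital stretch belongs to both motifs.
LYL1 (chr19:13102859-13103108, minus strand): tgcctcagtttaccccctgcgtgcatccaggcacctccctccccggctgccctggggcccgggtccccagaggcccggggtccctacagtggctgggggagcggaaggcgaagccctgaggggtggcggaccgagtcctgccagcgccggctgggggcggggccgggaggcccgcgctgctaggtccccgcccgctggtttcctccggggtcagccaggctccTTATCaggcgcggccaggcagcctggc
GATA2, inner start (chr3:128488531-128488780, minus strand): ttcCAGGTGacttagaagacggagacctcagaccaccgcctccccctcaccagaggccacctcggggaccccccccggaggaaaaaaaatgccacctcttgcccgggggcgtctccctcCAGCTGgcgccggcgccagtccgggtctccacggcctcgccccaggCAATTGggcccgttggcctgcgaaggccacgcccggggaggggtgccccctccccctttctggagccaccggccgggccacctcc
HHEX (chr10:92689705-92689954, plus strand): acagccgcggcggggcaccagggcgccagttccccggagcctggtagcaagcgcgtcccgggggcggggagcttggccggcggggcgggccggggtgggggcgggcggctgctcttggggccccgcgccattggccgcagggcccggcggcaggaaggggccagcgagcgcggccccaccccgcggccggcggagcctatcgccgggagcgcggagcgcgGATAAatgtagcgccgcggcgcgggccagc
TAL1, outer start (chr1:47232336-47232585, minus strand): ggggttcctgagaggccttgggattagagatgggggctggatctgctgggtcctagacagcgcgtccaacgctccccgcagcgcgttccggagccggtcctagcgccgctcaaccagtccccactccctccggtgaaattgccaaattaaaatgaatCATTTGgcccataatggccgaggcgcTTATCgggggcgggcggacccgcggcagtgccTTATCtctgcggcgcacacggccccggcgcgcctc
MECOM, outer start (chr3:169663713-169663962, minus strand): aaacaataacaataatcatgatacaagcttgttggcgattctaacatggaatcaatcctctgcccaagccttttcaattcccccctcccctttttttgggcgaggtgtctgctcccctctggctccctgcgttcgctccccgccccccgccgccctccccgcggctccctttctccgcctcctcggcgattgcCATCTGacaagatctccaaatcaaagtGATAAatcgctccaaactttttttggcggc

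GATAA was present in 16.8% and CANNTG in 58.1% of the 22198 RefSeq promoters of the same length. The LYL1 promoter held 1 GATAA match, 27 bases before the start, and no E-box. The HHEX promoter held 1 GATAA match at 30 bases and had 38 CpGs, against a median of 16 over all promoters. The GATA2 promoter at the inner start held 3 E-boxes and no GATAA. TAL1 held 2 GATAA matches, at 67 and 35 bases before its outer start, a number reached by 2.86% of promoters, together with 1 E-box and 24 CpGs. MECOM held 1 GATAA match at 30 bases and 1 E-box. Matches to these letters were thus present in acetylated and in unacetylated promoters among those printed. Of the promoters not printed, LDB1, covered in both lists, held neither motif. The outer start of GATA2 and the inner starts of TAL1 and HLF, under no peak, held neither motif as well. The inner starts of MECOM and the outer start of HLF, also under no peak, held 1 match each. RefSeq promoters were matched for 7 of the 8 genes, in 12 entries.

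Around the genes as a group, the 5 kb windows held 38 control peaks and 21 SNDX-50469 peaks. A control peak lay within 5 kb of 5 of the 8 genes, against 78% of all protein-coding genes, and a SNDX-50469 peak lay within 5 kb of 7 of the 8, against 52.1%. The covered length summed over the 8 windows was 72563 bp in control and 20815 bp after SNDX-50469, and 19551 bp, or 26.9% of the control length, was kept. Of the 38 control peaks, 7 shared sequence with a SNDX-50469 peak (18.4%, interval 9.22 to 33.4). The median kept share of the 5 genes with a control peak was 24.0%. Among all genes with a control peak the median was 2.36% and the mean 9.99%. These sets are unlike, since the 5 genes stood at percentile 79.2 or higher of all genes in the part of the window covered in control. Within 100 kb, the summed length was 377803 bp in control and 55801 bp after SNDX-50469, with 13.8% kept. There, 31 of 292 control peaks shared sequence with the other list (10.6%, interval 7.58 to 14.7).

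Covered length after SNDX-50469 was lower than in control at 5 genes, higher at MECOM and HLF and nil in both lists at TAL1. It was lower at 95.8% of all genes with a peak of either list in their 5 kb window, so that the direction at the 5 genes was that of nearly all genes. Within 100 kb it was lower at 7 of the 8 genes and higher at MECOM, against 97.3% lower among all genes with a peak there. When the weakest control peaks were set aside until both lists covered the same length, only LMO2 and LYL1 remained lower within 5 kb.

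**Figure D1:**
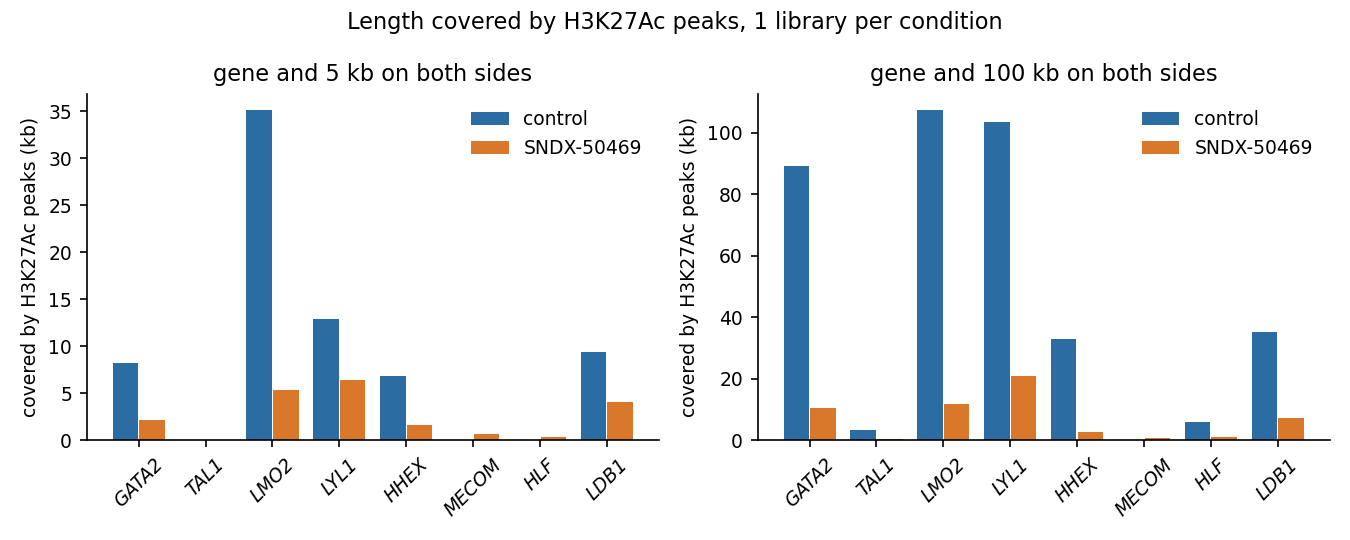
Length covered by H3K27Ac peaks (kb) at each of the 8 genes with 5 kb (left) and 100 kb (right) on both sides, 1 bar per library, control in blue and SNDX-50469 in orange. LMO2 has the most covered length near the gene, 35.1 kb in control and 5.39 kb after SNDX-50469, and TAL1, MECOM and HLF have no control bar in the left panel.

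LMO2 (chr11:33858576-33892076, minus strand) lay in the longest acetylated stretch of the 8. Within 5 kb, 10 control peaks covered 35140 bp, which is 80.8% of the window, and 4 SNDX-50469 peaks covered 5391 bp, which is 12.4%. All 5391 bp lay inside control peaks, giving a kept share of 15.3%, the lowest of the 5 genes. A control peak of 21856 bp (chr11:33886208-33908063, 8.14-fold over background) ran from 5.87 kb inside the gene to 16.0 kb upstream of its outermost 5′ end. It ranked 948 among all control peaks by fold, and the other ranks of single peaks given here are also by fold. Over the same end, the treated list held a peak of 3910 bp (chr11:33891128-33895037, 4.93-fold), which ranked 1908 among its own 54061.

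The acetylation of LMO2 was mostly upstream. In the 100 kb before the 5′ end 76639 bp were covered in control, and each of the 10 steps of 10 kb held a control peak. A second block of 21911 bp (chr11:33917728-33939638) lay 25.6 to 47.6 kb upstream, where no other protein-coding gene is annotated. Inside this block, SNDX-50469 peaks covered 4749 bp, of which 1 peak of 4338 bp (chr11:33928257-33932594, 4.90-fold) made up most. The 11380 bp control peak in the gene body (chr11:33865989-33877368) kept 731 bp, or 6.42%. What remained at LMO2 was therefore a peak at the 5′ end, a peak in the upstream block and short stretches elsewhere.

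LYL1 (chr19:13099033-13102858, minus strand) was the most fully covered of the group in both lists. Control peaks covered 93.6% of its 5 kb window (12940 bp) and SNDX-50469 peaks covered 46.6% (6445 bp). All 6445 bp were inside control peaks, so that 49.8% was kept, the highest share of the 8 genes. A single control peak of 12194 bp (chr19:13094331-13106524, 9.44-fold, rank 400) spanned the whole gene. Of it, 4 SNDX-50469 peaks were left, the widest at 4189 bp (chr19:13101610-13105798, 5.88-fold) over the 5′ end and the printed promoter. With a −log10 q of 5.47 and rank 746 it was the only SNDX-50469 peak within 5 kb of any of the 8 genes to reach a −log10 q of 5.

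LYL1 lies among other active genes. The neighbours TRMT1 and NFIX reach into its 5 kb window, and 35.1% of the control length covered within 100 kb lay outside the bodies of other protein-coding genes. The strongest control peak of the 100 kb window (chr19:13149455-13158044, 11.3-fold, rank 124) lay over IER2, an immediate early gene, and the 5′ end of STX10. Within 100 kb the covered length was 103410 bp in control and 20922 bp after SNDX-50469, and 18.6% was kept. Peaks of the broad block at LYL1 cannot be assigned to LYL1 rather than to its neighbours from position alone.

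GATA2 (chr3:128479422-128493201, minus strand) was acetylated at its 5′ part and at separate blocks far upstream. Within 5 kb, 11 control peaks covered 8235 bp (34.6% of the window), and 1 SNDX-50469 peak covered 2130 bp (8.96%). The kept length was 1973 bp, a share of 24.0%. The main control peak (chr3:128488148-128493178, 5031 bp, 5.29-fold, rank 7124) ran from just inside the outermost 5′ end to the inner RefSeq start 4671 bp downstream. The SNDX-50469 peak (chr3:128487991-128490120, 3.91-fold, rank 13812) covered the inner start and its printed promoter, and the outermost end had no SNDX-50469 peak within 3081 bp. At GATA2, acetylation after treatment was thus called at the inner of its annotated starts and not at the outer one.

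Most of the acetylation near GATA2 was far upstream. Of the 89353 bp covered in control within 100 kb, 90.8% lay beyond 5 kb from the gene, and 63656 bp lay in the 100 kb before the 5′ end. The flanks on both sides are most of that window, and 42.7% of them was covered, beside 34.6% within 5 kb. The strongest control peak was 32145 bp wide (chr3:128582516-128614660, 10.4-fold, rank 204) and began 89.3 kb upstream, in a stretch with no annotated protein-coding gene. It reached past the 100 kb window, and 30.5% of its whole length was covered after SNDX-50469. A second control peak of 12838 bp (chr3:128516288-128529125, 8.19-fold, rank 905) lay 23.1 to 35.9 kb upstream. It kept 42.2% of its length, chiefly under a SNDX-50469 peak of 5009 bp (chr3:128521112-128526120, 4.83-fold, rank 2191). This second peak kept a larger share than the 9.82% of the whole region between 5 and 100 kb from GATA2, of which it is itself a part. The 32145 bp peak lies partly outside that region. In the step 90 to 100 kb upstream, which it covered throughout, 21.0% was kept. A peak of 9121 bp in EEFSEC downstream (chr3:128417264-128426384) kept nothing.

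HHEX (chr10:92689955-92695647, plus strand) carried a compact acetylated block at its promoter. Within 5 kb, 9 control peaks covered 6831 bp (43.5% of the window) and 3 SNDX-50469 peaks covered 1630 bp (10.4%), all of it inside control peaks, so that 23.9% was kept. The main control peak was 4804 bp wide (chr10:92688540-92693343, 4.98-fold, rank 8803) and ran from 1.42 kb before to 3.39 kb after the 5′ end. The main SNDX-50469 peak was 1374 bp wide (chr10:92689987-92691360, 4.81-fold, rank 2261) and began 32 bp inside the gene. The 250 bases of the printed promoter, covered throughout in control, held none of it. A 6981 bp control peak 64.0 to 71.0 kb downstream of the 5′ end (chr10:92753995-92760975) kept nothing, and in the flanks from 5 to 100 kb the kept share was 4.63%. The strongest control peak of the 100 kb window lay at the 5′ end of KIF11, a mitotic kinesin gene.

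LDB1 (chr10:102102088-102121442, minus strand), which is expressed in many tissues, kept the second largest share. Within 5 kb, 6 control peaks covered 9417 bp (32.1% of the window) and 3 SNDX-50469 peaks covered 4112 bp (14.0%), all inside control peaks, for a kept share of 43.7%. These 4112 bp lay in 1 control peak of 7160 bp (chr10:102113929-102121088, 6.22-fold, rank 3750), of which they made up 57.4%. The widest of the 3 SNDX-50469 peaks was 2879 bp (chr10:102116737-102119615, 4.07-fold, rank 9247). The promoter of the inner RefSeq start of LDB1 was covered over all of its 250 bases in both lists. The outer 5′ end of LDB1 overlaps PPRC1, a gene read in the other direction. The 5′ end of PPRC1 lies under the same 7160 bp control peak. The length covered and kept in that peak therefore cannot be assigned to LDB1 rather than to PPRC1 from position alone. The strongest control peak of the 100 kb window lay in PPRC1 (chr10:102132435-102134646, 7.90-fold, rank 1145).

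**Figure D2:**
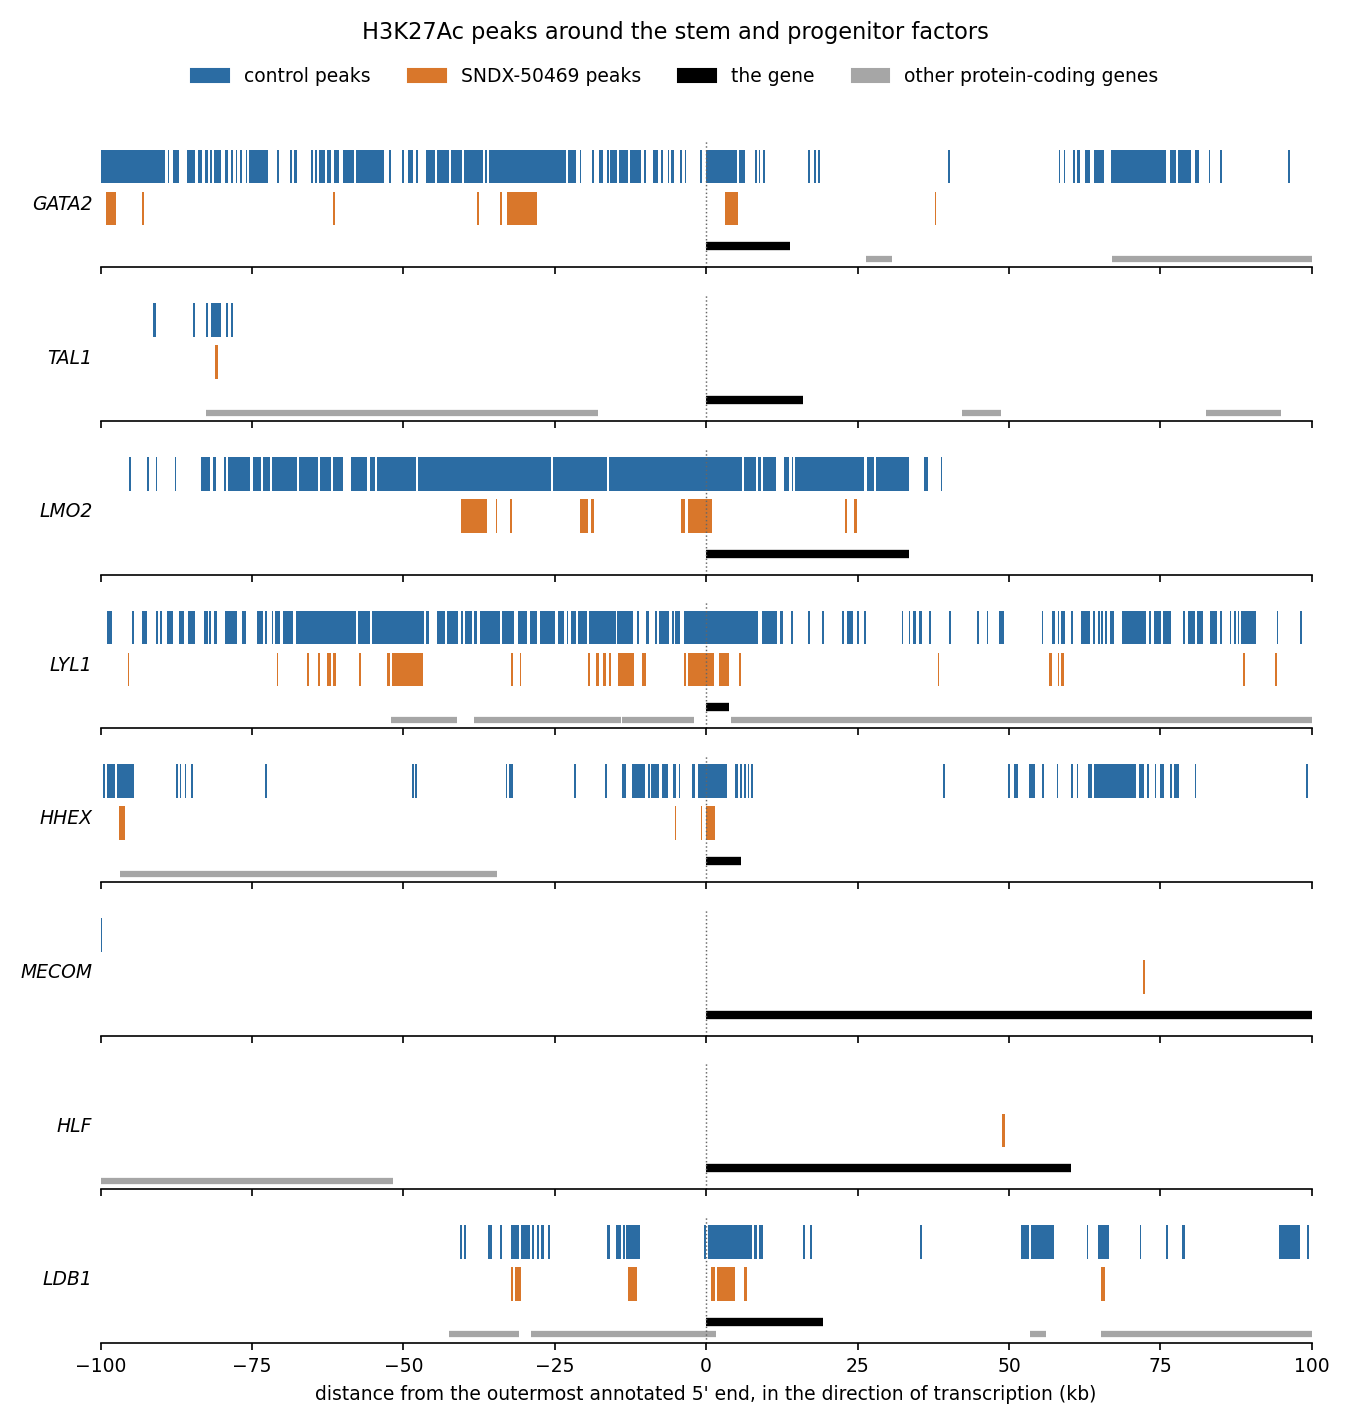
Positions of control peaks (blue) and SNDX-50469 peaks (orange) within 100 kb of the outermost annotated 5′ end of each gene, with distance in kb in the direction of transcription (negative is upstream), the gene in black and other protein-coding genes in grey. Orange bars lie over or beside the start of LMO2, LYL1, HHEX and LDB1 and 3.08 kb inside GATA2, while TAL1, MECOM and HLF have no peak of either colour near the start.

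TAL1 (chr1:47216290-47232335, minus strand) had no peak of either list over the gene or within 5 kb. Its nearest control peak lay 78.3 kb upstream, in STIL near its 5′ end. Within 100 kb, 7 control peaks covered 3259 bp, all of them upstream, and 1 SNDX-50469 peak covered 472 bp, a kept share of 14.5%. Of the control length, 2383 bp lay over the STIL gene body. The neighbour PDZK1IP1 on the other side of TAL1 had no covered base either. TAL1 thus lay in a stretch with no called acetylation in MOLM13, unlike its relative LYL1.

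MECOM (chr3:169083507-169663712, minus strand) and HLF (chr17:55264960-55325187, plus strand) had no control peak within 5 kb but a few short SNDX-50469 peaks. At MECOM these were 5 peaks of 103 to 198 bp, together 714 bp or 0.121% of its window, with folds from 3.46 to 3.89. At HLF it was 1 peak of 393 bp with a fold of 3.52 (chr17:55313838-55314230), 48.9 kb inside the gene. The smallest fold in the SNDX-50469 list was 3.46. By fold the strongest of the MECOM peaks ranked 14740 and the HLF peak 36799 of the 54061 in that list. None had a −log10 q of 2. Among all genes with no control peak in the 5 kb window, 8.43% had a SNDX-50469 peak there. The nearest control peak to the outermost 5′ end was 99.8 kb away at MECOM and 140.1 kb at HLF, where nearly all of the 6002 bp covered within 100 kb lay over MMD.

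At the outermost annotated 5′ ends, a control peak lay within 1 kb at 5 of the 8 genes (GATA2, LMO2, LYL1, HHEX and LDB1), against 59.9% of the 19671 genes with a known strand. A SNDX-50469 peak lay within 1 kb at 4 of the 8 (LMO2, LYL1, HHEX and LDB1), against 30.3% of genes. At LDB1 that peak lay 747 bp from the end and also overlapped PPRC1, and it cannot be assigned to either gene from position alone. A peak that covered the end itself was found at LMO2, LYL1 and HHEX in control and at LMO2 and LYL1 after SNDX-50469.

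**Figure D3:**
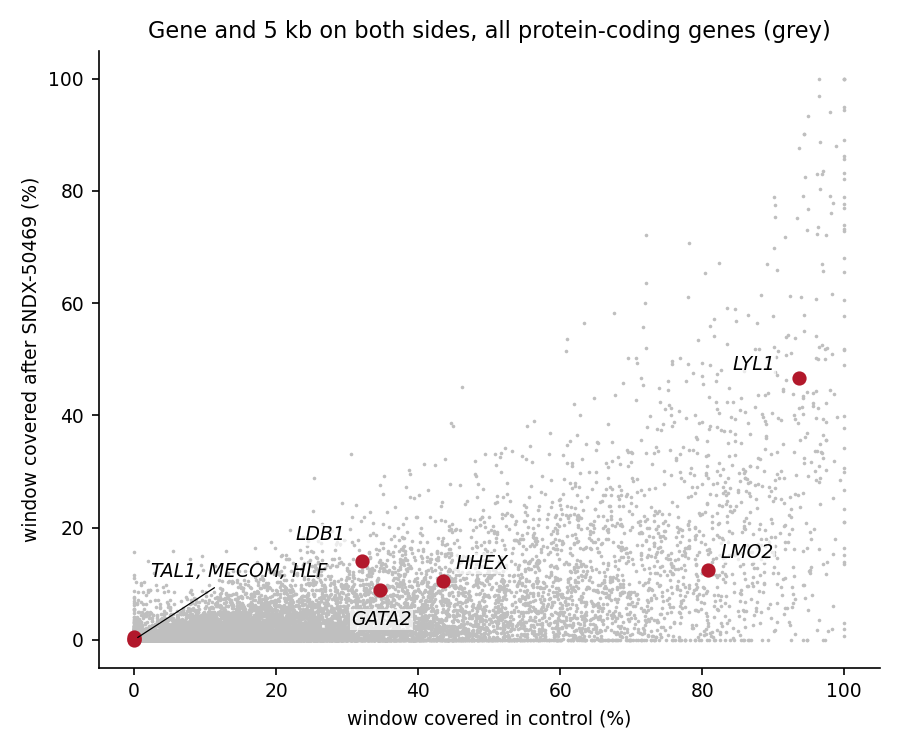
Percent of the gene and 5 kb covered by control peaks (horizontal axis) and by SNDX-50469 peaks (vertical axis) for all 20033 protein-coding genes (grey points), with the 8 genes in red. LYL1 lies at 93.6% and 46.6%, LMO2 at 80.8% and 12.4%, and TAL1, MECOM and HLF lie at or next to 0 on both axes.

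Among all 20033 genes, the covered part of the window in control stood at percentile 99.2 for LYL1, 97.3 for LMO2, 86.0 for HHEX, 80.9 for GATA2 and 79.2 for LDB1. After SNDX-50469 the percentiles were 99.4 for LYL1, 94.3 for LDB1, 93.3 for LMO2, 91.9 for HHEX and 90.3 for GATA2. The kept share, placed among genes with a control peak, stood at percentile 97.2 for LYL1, 95.8 for LDB1, 84.8 for GATA2, 84.7 for HHEX and 75.1 for LMO2. LMO2 was thus second of the 8 in control and last of the 5 in kept share. GATA2 and HHEX, at 24.0% and 23.9%, had nearly the same kept share. The 3 genes nearest to each of these members in the 3 percentiles were LOC124901225 (48.9% kept), MED29 (50.4%) and LAT2 (48.9%) for LYL1. For LMO2 they were DMAC2 (15.4%), INHBE (14.9%) and CCDC12 (14.8%). For GATA2 they were THBS2 (23.9%), EIF3B (24.8%) and PATZ1 (24.4%). For HHEX they were CDC34, SPNS3 and MMP17, which kept 23.4% each. For LDB1 they were CLNS1A (44%), C19orf73 (43.8%) and THAP7 (42.6%).

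Near the genes, more was kept than in their flanks. Between 5 and 100 kb from the gene the kept share was 9.82% at GATA2, 9.01% at LMO2, 14.1% at LYL1, 4.63% at HHEX and 11.1% at LDB1, in each case below the share within 5 kb. Whole chromosomes kept 7.55% (chromosome 3, GATA2), 8.66% (11, LMO2), 14.4% (19, LYL1) and 7.56% (10, HHEX and LDB1). The LYL1 flank was thus near the level of its chromosome. Chromosome 8, which holds no member, kept 19.3% and enters the 9.71% over all positions. Over all genes with a control peak in the window, the median kept share was 2.36% for the gene and 5 kb and 6.77% for the gene and 100 kb. The mean had the other order, with 9.99% for the gene and 5 kb and 9.28% for the gene and 100 kb. The 100 kb window includes the gene and 5 kb, so these values do not describe the flank alone.

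**Figure D4:**
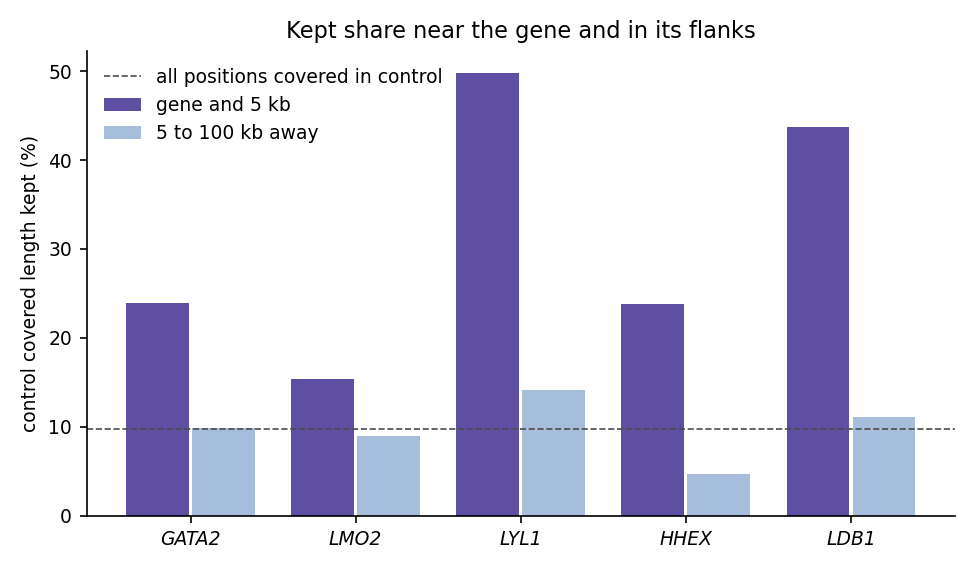
Percent of the control covered length kept after SNDX-50469 in the gene and 5 kb (dark bars) and from 5 to 100 kb away (light bars) for the 5 genes with a control peak near them; the dashed line marks the 9.71% kept over all control positions. Every dark bar is taller than its light neighbour, with 49.8% against 14.1% at LYL1 and 15.3% against 9.01% at LMO2.

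Genes of proteins that work with these factors were described in the same way. All 10 partners examined (the E proteins TCF3, TCF12 and TCF4, the LDB1-binding proteins SSBP2, SSBP3 and SSBP4, the corepressors CBFA2T3 and CBFA2T2, the LIM protein LMO4 and the GATA cofactor ZFPM1) had a control peak within 5 kb (78% of all genes) and at the 5′ end (59.9%). After SNDX-50469, 7 of the 10 had a peak within 5 kb (52.1% of all genes) and 5 had one at the 5′ end (30.3%), and covered length was lower at all 10 (95.8%). The covered part of the window in control varied widely, from 1.20% at SSBP2, 2.24% at CBFA2T2 and 3.62% at TCF4, below the median of 7.94% over all genes, to 67.7% at SSBP4. Their median kept share was 4.75%. SSBP4 kept 29.7%, LMO4 27.8%, TCF3 17.4%, CBFA2T3 13.8% and TCF12 8.62% of the control length, and ZFPM1 kept 0.887%. TCF4, CBFA2T2, SSBP2 and SSBP3 kept nothing. Of the factors that share sites with the complex, RUNX1 was covered over 78.2% of its window in control and kept 12.4%, FLI1 was covered over 36.3% and kept 8.16%, and ERG, covered over 3.73%, kept nothing.

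Other lists gave a frame for these values. Of 15 other stem and progenitor regulators, a list that also holds RUNX1, ERG and FLI1, 12 had a control peak and 9 a SNDX-50469 peak, near the 78% and 52.1% of all genes, with a median kept share of 10.3%. GATA3, NKX2-3 and HOXB4 had no control peak, and HOXA9, a homeobox gene of MLL1-r leukemia, kept the most (86.9%). Of 10 myeloid factors, 9 had a control peak and the median kept share was 22.4%, close to that of the 5 acetylated genes, with CEBPA highest at 68.1% and KLF4 at 0. A list of 7 genes from among those that the study names as MLL-fusion targets, which were picked on samples of this study and are no independent set, and which leaves out HOXA9, had control peaks in all cases and a median kept share of 4.198%, from 2.96% at CDK6 to 47.1% at LAMP5. No test was made between the lists.

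**Figure D5:**
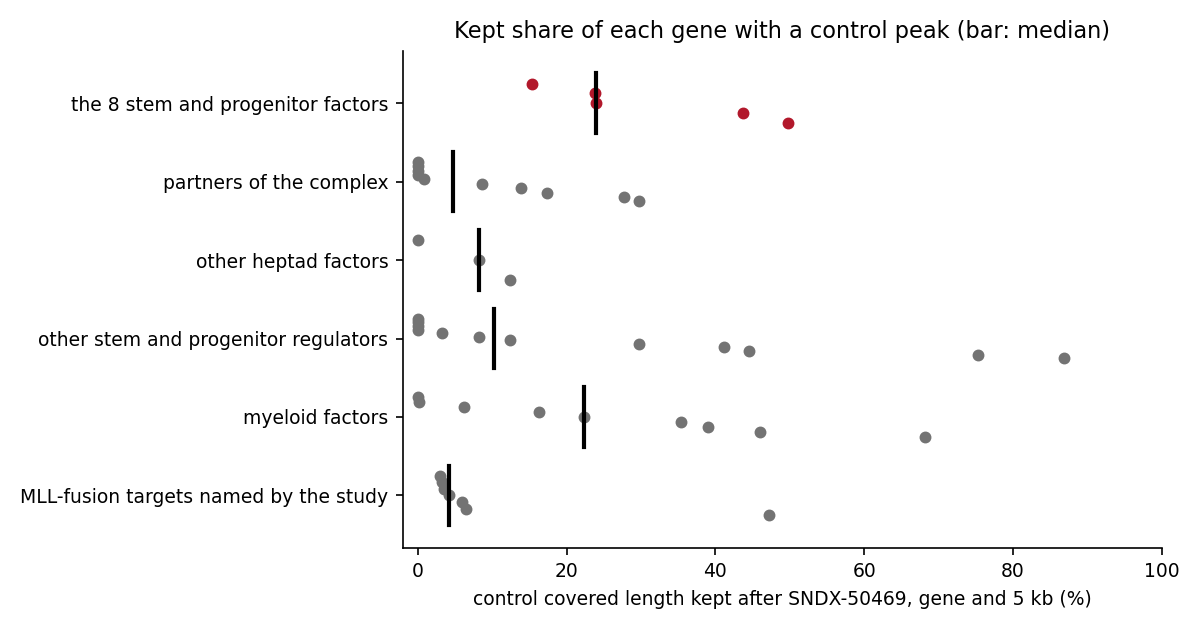
Percent of the control covered length kept after SNDX-50469 in the gene and 5 kb, with 1 point for each gene that has a control peak there, the 8 stem and progenitor factors in red (5 points) and the other lists in grey; vertical bars are medians. The medians are 24.0% for the stem and progenitor factors, 22.4% for the myeloid factors, 10.3% for other stem and progenitor regulators and 4.75% for the partners.

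Marker genes were used to check the cell type. All 13 monocytic and myeloid markers had a control peak within 5 kb and at the 5′ end. Of 8 erythroid and megakaryocytic markers 5 had one within 5 kb. Of 6 T lymphoid markers 5 and of 5 B lymphoid markers all 5 had a control peak. These counts stand beside 78% of all genes with a control peak within 5 kb. At the 5′ end, where 59.9% of all genes had a control peak, 3 of the 8 erythroid and megakaryocytic, 3 of the 6 T lymphoid and 3 of the 5 B lymphoid markers had one. After SNDX-50469, a peak was called within 5 kb at 52.1% of all genes, and at 10 of the 13 monocytic and myeloid markers, 3 of the 8 erythroid and megakaryocytic, none of the 6 T lymphoid and 4 of the 5 B lymphoid markers.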

How the data were processed

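H3K27Ac ChIPmentation of MOLM13 cells was analysed from 2 lists of broad peaks, 1 for the control library and 1 for the library treated with SNDX-50469. The processing notes of the submitters name Trim Galore 0.6.5, Bowtie2 2.3.4.2, Picard 2.9.0 and MACS2 2.1.2, and the supplementary methods name TopHat2, hg38, diffReps and ROSE. Caller options, the cutoff and whether an input entered the calling are not given in the sources used here. In the deposited lists each peak has a ratio (its fold over background), a −log10 p and a −log10 q, and the authors' score is 10 times the −log10 q without decimals and was not used. As no scaling between the libraries was applied to these values, peaks were ranked and filtered within a list and only positions were compared between lists. The files hold no read totals, and depth was judged by the background level, recovered from the smallest fold as pileup plus 1 over background plus 1.

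Genes were the 20033 protein-coding genes of RefSeq on GRCh38.p14, the build of hg38. Strand came from the RefSeq promoter table or, for 3829 genes including LMO2, by symbol from GENCODE. Covered and kept length were computed over the gene with 5 kb and with 100 kb on both sides, with at least 1 bp for a shared peak, using Python 3.11.15, numpy 2.4.6, pandas 2.3.3 and scipy 1.17.1, and were checked on simulated peaks. Percentiles are over all genes, with ties at mid-rank. Alternatives were stricter peaks, a common cutoff, equal covered length, other windows, other ways to count a kept peak, and leaving out 1 gene. The 8 genes, the other lists and the settings were chosen with earlier results of these data known. All 8 genes are named; from the lists of partners and of factors that share their sites every gene may be named, from the others the highest and lowest kept shares and the genes without a control peak, and for each acetylated member the 3 genes nearest in its 3 percentiles. Some genes of the lists are not reported here by name.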

Additional observations from a re-analysis of the deposited data

How the results depend on the processing

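No paired analysis was possible because there was only 1 library on either side. The summed kept share within 5 kb was 8.14% with peaks of a −log10 q of at least 5 and 5.26% when counted as control peaks with at least 50% of their length covered. The other settings tried there left it between 18.4% and 37.8%, with 21.98% without LYL1 and 37.8% without LMO2 (both chosen after seeing the data). With peaks of a −log10 q of at least 5, LYL1 kept 34.35% within 5 kb, while GATA2, LMO2, HHEX and LDB1 kept 0. The summed share within 100 kb was 5.94% at a −log10 q of at least 5, 19.9% with the cutoff of the SNDX-50469 list on both lists, 29.7% with control trimmed to the same covered length, 19.6% within 50 kb and 2.40% by peaks covered over at least 50%. With control trimmed to the same covered length, 2 genes were lower after SNDX-50469 within 5 kb and 2 within 100 kb, and a control peak was left at 2 of the 5′ ends. A peak over the 5′ end itself was found at 3 genes in control and 2 after SNDX-50469, and 1 SNDX-50469 peak at a 5′ end reached a −log10 q of 5.

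The trimmed control also turned the direction of single genes. There the SNDX-50469 covered length exceeded that of control by 2130 bp at GATA2, 1630 bp at HHEX and 4112 bp at LDB1 within 5 kb, and within 100 kb by 472 bp at TAL1, 138 bp at LYL1, 2845 bp at HHEX, 1113 bp at HLF and 3193 bp at LDB1. HLF was higher after SNDX-50469 by 393 bp within 50 kb and by 273 bp with the bodies of other genes left out. MECOM turned to -157 bp within 100 kb with peaks of a −log10 q of at least 2 and likewise of at least 5, where none of its SNDX-50469 peaks remained. The trimmed list holds 3632 control peaks, so that it lacks the weaker control peaks by construction. No control peak was left at GATA2, HHEX and LDB1 within 5 kb, nor at TAL1, HHEX and HLF within 100 kb. There the direction was fixed by the trimming. These lists support statements on where peaks were called. Whether acetylation itself was lower by as much cannot be told apart from the depth of the libraries and the reach of each list.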
